A study of Mus musculus with 4 samples.

Results

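Molecular chaperones were examined as targets of the RNA-binding protein MSI2 (Musashi 2) in mouse intestinal epithelium. The genes were taken by symbol: the heat shock protein families Hspa to Hsph and Hsp90, the Dnaj families a, b and c, the chaperonin subunits Cct and Tcp1, the Pdia disulfide isomerases, and the lectins Calr and Canx. This gave 90 of 21896 protein-coding genes. By the place where the protein works, 56 were assigned to the cytosol or nucleus, 20 to the endoplasmic reticulum (ER), 9 to mitochondria and 5 to none of these. Among these 5 is Hspg2, which encodes perlecan, a proteoglycan of the extracellular matrix that shares only the letters of its symbol.

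RNA crosslinked to MSI2 by ultraviolet light was recovered with an MSI2 antibody and sequenced (CLIP-seq) from 2 wild-type (WT) and 2 TRE-Msi2 samples, all C57BL6. The TRE-Msi2 mice carry an Msi2 transgene behind an element that responds to doxycycline, and their total intestinal epithelium was taken after 24 hours of the drug. The WT material was crypts, with no doxycycline recorded, so genotype, tissue fraction and drug cannot be told apart. The labels name neither the promoter that drives the transactivator nor whether samples of 1 genotype came from separate animals.

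Each deposited peak list joins both samples of its genotype. Replicate spread is therefore unknown, and comparisons between genotypes carry no test. The WT list held 12061 peaks and the TRE-Msi2 list 16939. The score of a peak is the authors' own. For peaks of a single 200-nt bin it was a whole number in 99.1% of WT and 96.7% of TRE-Msi2 peaks and was read as a number of reads. Peaks that join several bins often carry fractions that are no average over their bins. How those scores were made is unknown, so a joined score and a single-bin score may not be on 1 scale. Single-bin peaks started at a score of 15 in WT and 20 in TRE-Msi2, and library depth is unknown. No input or RNA abundance library was used here. A peak can therefore follow the amount of a transcript, and fewer cells of a type and less RNA per cell cannot be told apart. Of 5 epithelial markers 4 held a WT peak and 5 a TRE-Msi2 peak. All 5 Paneth and all 5 enterocyte markers held peaks in both lists, the WT crypt list included. All peaks of the Paneth marker Mmp7 and the enterocyte marker Fabp2 also touched another gene span. The top scores of the Paneth markers were 28.5 to 97 in WT and 19.3 to 93 in TRE-Msi2, and those of the enterocyte markers 38.8 to 81.4 and 64.4 to 98.3. Of 5 immune markers, Cd74 and Jchain did in both, and of 5 stromal markers 0 did in either.

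Chaperones bind unfolded protein chains and help them to fold. In the cytosol, HSP70 proteins work with DNAJ partners that bring them clients and with HSP110 proteins that exchange their nucleotide, HSP90 matures signalling proteins, and the ring-shaped CCT chaperonin folds actin and tubulin. In the ER, BiP (Hspa5), GRP94 (Hsp90b1), calnexin, calreticulin and the protein disulfide isomerases fold secreted and membrane proteins, which Paneth, goblet and absorptive cells of the intestine make in large amounts. MSI2 binds short UAG-containing motifs in RNA and acts on the stability and translation of its targets.

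A promoter sequence was also compared between the classes. It is already known from ER chaperone genes, so finding it more often in the ER class is no independent result. The ER stress element, CCAAT and CCACG separated by 9 bases, through which ER chaperone genes are induced when unfolded protein accumulates, was searched on both strands of the RefSeq windows (GRCm38.p6, from 250 bases before to 50 after each gene start). It lay in the windows of 6 of 18 ER members, against 0 of 47 cytosolic and 0 of 6 mitochondrial members and 0.137% of all 27025 genes with a window. The 6 are shown, and all of them held MSI2 peaks in both lists. So did 12 of all 20 ER members, among them Pdia3 and Dnajb11 without the element, and 19.1% of all protein-coding genes. A link between element and peaks was not tested. The letters of the element are in capitals, with 5 flanking bases on each side, and the strand is that of the letters shown.
Hspa5, chr2:34772020-34772048 (+): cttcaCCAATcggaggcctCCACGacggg
Hsp90b1, chr10:86705528-86705556 (+): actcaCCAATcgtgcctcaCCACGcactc
Hsp90b1, chr10:86705633-86705661 (-): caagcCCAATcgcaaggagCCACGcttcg
Calr, chr8:84847070-84847098 (+): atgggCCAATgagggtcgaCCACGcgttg
Canx, chr11:50325795-50325823 (-): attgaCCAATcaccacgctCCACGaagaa
Dnajc3, chr14:118937822-118937850 (+): cacaaCCAATcagcgccaaCCACGacccg
Pdia6, chr12:17266486-17266514 (+): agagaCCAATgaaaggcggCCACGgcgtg
Hsp90b1 carried 2 copies in opposite orientation. A heat shock element of 3 units (GAA, TTC and GAA, each 2 bases apart) was searched in the same way. It was in 2 of 47 cytosolic members (Dnajb6 and Hsph1), 2 of 6 mitochondrial members (Hspd1 and Hspe1), 0 of 18 ER members and 0.662% of all genes. Beside 2 of 47, the 0 of 18 does not set the ER class apart from the cytosol. Hspd1 and Hspe1, the chaperonin and co-chaperonin of mitochondria, are neighbours on opposite strands whose windows share 2 overlapping matches, 1 on each strand, of which the minus-strand match is shown:
Hspd1 and Hspe1, chr1:55088054-55088076 (-): ttccgGAAggTTCtaGAAcggac
No peak of either list lay in any of the 94 windows of the chaperone genes. A match describes the letters of a window and not the binding of a factor.

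Of the 90 genes, 39 (43.3%) held at least 1 WT peak and 45 (50.0%) at least 1 TRE-Msi2 peak. Over all protein-coding genes the shares were 20.3% and 24.8%. In all, 99 WT and 136 TRE-Msi2 peaks lay over chaperone genes, 38 genes held peaks in both lists and 44 in neither. The median gene span was 17.2 kb, against 17.1 kb for all protein-coding genes. The plot of shares by role shows where the genes with peaks lay.

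**Figure D1:**
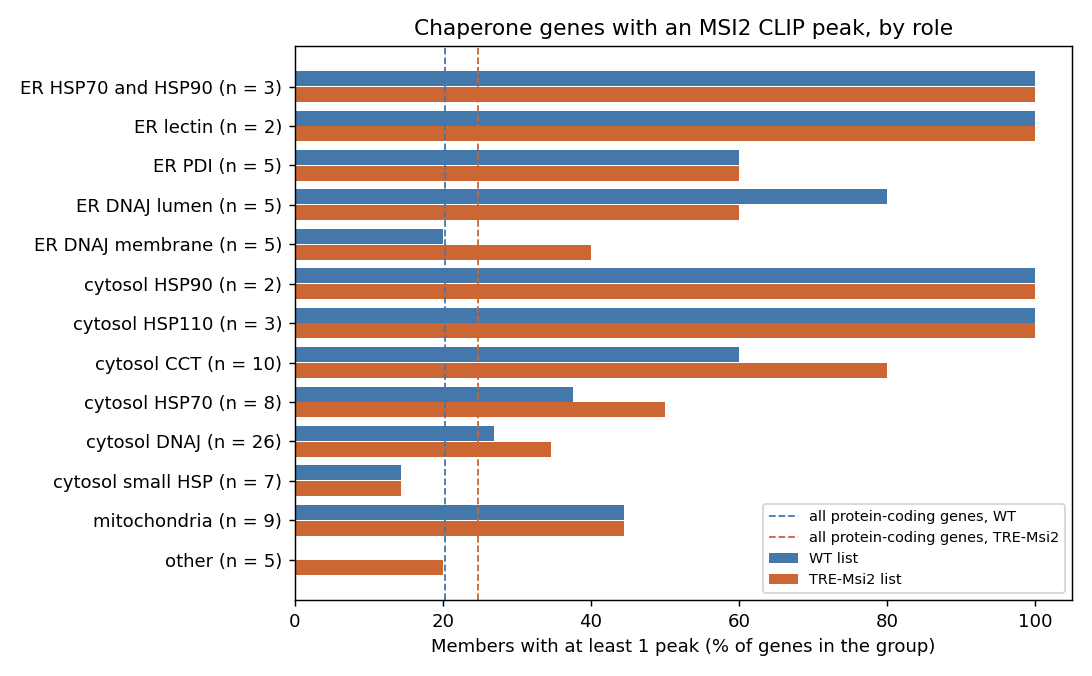
The bars give the percentage of genes in each role with at least 1 peak in each list (WT and TRE-Msi2); dashed lines give the shares over all protein-coding genes (20.3% and 24.8%). All genes of the ER HSP70 and HSP90, ER lectin, cytosolic HSP90 and HSP110 roles held peaks in both lists, while 1 of 7 small heat shock proteins did.

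Among ER genes, 13 of 20 (65.0%) held a WT peak and 13 a TRE-Msi2 peak, and 12 held both. Spans between the quartiles of the ER class were found in 5893 protein-coding genes, of which 23.0% held a WT and 28.2% a TRE-Msi2 peak. The highest scores of any chaperone were in Pdia3, the disulfide isomerase that works with calnexin and calreticulin on glycoproteins. Pdia3 spans chr2:121413902-121438687 and held 7 WT and 10 TRE-Msi2 peaks. Its top bin, chr2:121433465-121433664, had a score of 53 in WT (exact Poisson 95% interval 39.7 to 69.3) and 91 in TRE-Msi2 (73.3 to 112). Such intervals cover counting error only. A second Pdia3 bin, at chr2:121424465-121424664, had 49 and 89. By top score Pdia3 ranked 98 of the 4435 genes with a WT peak and 33 of the 5432 with a TRE-Msi2 peak. Both bins lay inside the gene, 5023 and 14023 bases before the end of its span.

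Hspa5, which encodes BiP, the HSP70 of the ER, came next. It held 2 peaks in each list at the same positions. The peak at chr2:34775481-34776480, which ends 49 bases before the end of the span, had scores of 47.2 and 76.8 and covered 1000 bases in both lists. The other, at chr2:34774081-34774480, had 23.5 and 28.3. The span of Rabepk also covers the first of these peaks, but Rabepk lies on the opposite strand to it. Peaks covered 31.5% of the 4.44-kb Hspa5 span in each list, where the median gene with a peak had 1.27% in WT and 1.62% in TRE-Msi2. These medians were not matched for span, and a peak covers a larger share of a short gene. The median span of all protein-coding genes was 17.1 kb.

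Canx (calnexin) and Hsp90b1 (GRP94) had the most peaks of any chaperone in both lists. Canx, the membrane-bound lectin that holds glycoproteins during folding, held 10 WT and 12 TRE-Msi2 peaks, rank 21 and rank 35 among all genes by number of peaks. Its scores ran from 15 to 34.5 in WT and from 23 to 53.5 in TRE-Msi2, and its widest peak covered 1800 bases in WT and 2000 in TRE-Msi2. All 10 WT peaks of Canx had a TRE-Msi2 counterpart, and all peaks of the gene lay at least 13975 bases from its start. Hsp90b1, the HSP90 of the ER, held 9 and 11 peaks, with scores of 16.3 to 29 in WT and 20 to 52 in TRE-Msi2. The top bin of Hsp90b1, chr10:86703456-86703655, was the same in both lists and lay 1789 bases from the start of the gene. The map of peaks along gene spans shows both genes.

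The other ER genes had fewer peaks. Calr, the soluble partner of calnexin, held 1 WT peak with a score of 13 and 2 TRE-Msi2 peaks with a top score of 32.8. The WT peak of Calr joins bins over 800 bases, and joined peaks can score below the lowest single-bin score. Pdia4 held 1 peak in each list at the same position (25.5 and 26.3), and Pdia6 held 1 WT peak (26) and 4 TRE-Msi2 peaks (top 22.7). The WT peak of Pdia6 was a single bin and its top TRE-Msi2 peak was joined, so their scores may not be on 1 scale. Hspa13, a divergent HSP70, held 2 and 3 peaks with top scores of 18.5 and 30. Of the DNAJ partners of BiP, Dnajb11 held 4 peaks in each list (top 29 and 41), Dnajb9 held 2 in each (18 and 35), and Dnajc3 held 3 and 6 (23.5 and 31). Dnajb12, of the ER membrane, held 1 WT peak (22) and 3 TRE-Msi2 peaks (27). Dnajc10 held 1 WT peak and no TRE-Msi2 peak, with a score of 15, equal to the lowest single-bin score of the list. Dnajc14 held a TRE-Msi2 peak alone (29), and this peak also touched Ormdl2. Pdia2, Pdia5, Dnajc1, Dnajb14, Dnajc16 and Dnajc18 held none.

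**Figure D2:**
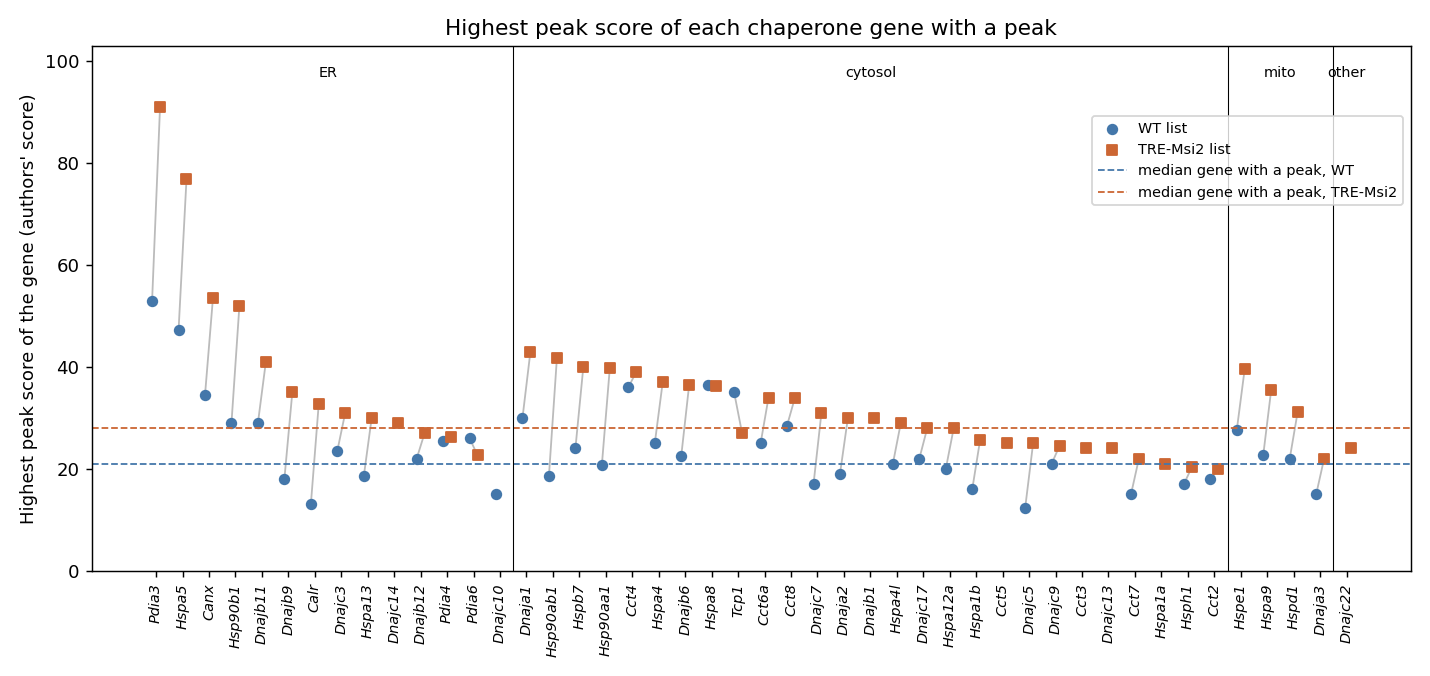
Each point is the highest peak score of a gene (authors' score) in the WT list (circles) or the TRE-Msi2 list (squares), for the 46 chaperone genes with a peak in either list, grouped by place of work (mito, mitochondria). Dashed lines mark the median gene with a peak, 21 in WT and 28 in TRE-Msi2; Pdia3 and Hspa5 stand highest in both lists.

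Among cytosolic and nuclear genes, 22 of 56 (39.3%) held a WT peak and 27 (48.2%) a TRE-Msi2 peak; every one of the 22 was among the 27. Of the 9938 genes with spans between the quartiles of this class, 18.9% and 23.9% did. Both HSP90 genes and all 3 HSP110 genes held peaks in both lists. Hspa8, the constitutive HSP70 (HSC70), is a 3.93-kb gene in which peaks covered 48.0% of the span in WT and 78.6% in TRE-Msi2. The WT list had 4 peaks there, with scores of 12.7, 36.5, 33.2 and 35.5 along the gene. The TRE-Msi2 list had a single 3000-base peak over the same stretch, chr9:40802318-40805317, with a score of 36.4, and 1 further bin of 26. This peak includes the small nucleolar RNA genes Snord14c, Snord14d and Snord14e, which lie inside Hspa8, and 2 of the WT peaks include Snord14c or Snord14d. Reads of these RNAs and of Hspa8 cannot be told apart here.

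The stress-induced HSP70 genes Hspa1a and Hspa1b are near-identical neighbours between which reads can be split. Hspa1b held 1 peak in each list, of 16 and 25.8, and Hspa1a held a TRE-Msi2 peak alone, of 21. Hspa12a, a distant relative, held 1 peak per list (20 and 28), which also touched another gene span. Hsp90ab1, the constitutive HSP90, held 4 peaks in each list. Its scores were 15 to 18.7 in WT and 29 to 41.7 in TRE-Msi2, and all 4 had a counterpart. Its end peak ran past the span and touched Slc35b2, which lies on the opposite strand. Hsp90aa1, the inducible form, held 2 WT and 3 TRE-Msi2 peaks with top scores of 20.8 and 39.8. Among the HSP110 genes, Hspa4 held 4 peaks in each list (top 25 and 37), Hspa4l held 2 (21 and 29) and Hsph1 held 1 (17 and 20.3). Hspa2, Hspa14, Hspa1l and Hspa12b held none.

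The CCT ring has 8 kinds of subunit. Of the 10 genes in this family, 6 held a WT peak and 8 a TRE-Msi2 peak. Cct4 held 3 bins, identical in both lists, with scores of 23, 36 and 17 in WT and 28, 39 and 27 in TRE-Msi2. Tcp1, the first subunit, held 4 WT and 5 TRE-Msi2 peaks, and its top score was 35 in WT and 27 in TRE-Msi2. These top scores were at different positions. The WT peak of 35 was a single bin, and its TRE-Msi2 counterpart was a joined peak of 24, so their scores may not be on 1 scale. The top WT peak of Tcp1 also touched Acat3, a gene that overlaps its end. Cct8 held 2 and 4 peaks (28.5 and 34), Cct7 held 1 and 2 (15 and 22), and Cct2 and Cct6a held 1 each (18 and 20 in Cct2, 25 and 34 in Cct6a). Cct3 (24) and Cct5 (25) held TRE-Msi2 peaks alone. Cct6b and Cct8l1 held none, so each of the other 8 family genes had a peak in at least 1 list.

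Of the cytosolic DNAJ genes, 7 of 26 (26.9%) held a WT peak and 9 (34.6%) a TRE-Msi2 peak, shares nearer to those of all genes. Dnaja1, a main partner of HSC70, had the most peaks and the highest scores of them. It held 5 WT and 7 TRE-Msi2 peaks, with top scores of 30 and 43, and all 5 WT peaks had a counterpart. Dnaja2 held 2 and 5 peaks (19 and 30). Dnajb6, which suppresses aggregation, held 1 joined peak at the same position in each list (22.5 and 36.5). Dnajc7 held 2 bins in each list (top 17 and 31), all inside the overlap with Cnp, which runs on the opposite strand. Dnajc9 (21 and 24.5), Dnajc17 (22 and 28) and Dnajc5, the cysteine string protein (12.3 and 25), also held peaks in both lists. The Dnajc17 peak also touched Gm14137, on the opposite strand, in both lists. Dnajb1, the partner of stress-induced HSP70 (30), and Dnajc13, an endosomal protein (24), held TRE-Msi2 peaks alone. The other 17 held none: Dnaja4, Dnajb2, Dnajb3, Dnajb4, Dnajb5, Dnajb7, Dnajb8, Dnajb13, Dnajc2, Dnajc5b, Dnajc5g, Dnajc6, Dnajc8, Dnajc12, Dnajc21, Dnajc24 and Dnajc27.

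Of 7 small heat shock protein genes, Hspb7 alone held a peak, a bin of 24 in WT and 40 in TRE-Msi2, and this bin was on the other strand than the gene. It is thus not evidence for the Hspb7 transcript. Hspb1, Hspb2, Hspb3, Hspb6, Hspb8 and Hspb9 held none. Apart from this bin, all 98 WT and 135 TRE-Msi2 peaks lay on the strand of their chaperone gene. Over all protein-coding genes of known strand, 82.4% of WT and 84.2% of TRE-Msi2 peaks did, counted once per gene touched. For 8 of the chaperone genes with peaks the strand was read from the peaks themselves, so their peaks agree by construction.

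In mitochondria, the chaperonin ring of Hspd1 (HSP60) and its lid Hspe1 (HSP10) held peaks in both lists. Hspd1 held 7 in each list, with scores of 13.3 to 22 in WT and 25.3 to 31.2 in TRE-Msi2, spread from 1287 bases after the start of the 10.4-kb span to its end. Hspe1 held 1 joined peak of 600 bases at the same position, with scores of 27.7 and 39.7. Hspa9, the mitochondrial HSP70, held 1 WT peak (22.8) and 2 TRE-Msi2 peaks (35.5), and Dnaja3 held 1 bin in each (15 and 22). Dnajc11, Dnajc15, Dnajc19, Dnajc28 and Dnajc30 held none. Of the 5 genes outside these compartments, Dnajc22 held 2 TRE-Msi2 peaks (top 24), and Hspg2, Hspb11, Dnajc4 and Dnajc25 held none.

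**Figure D3:**
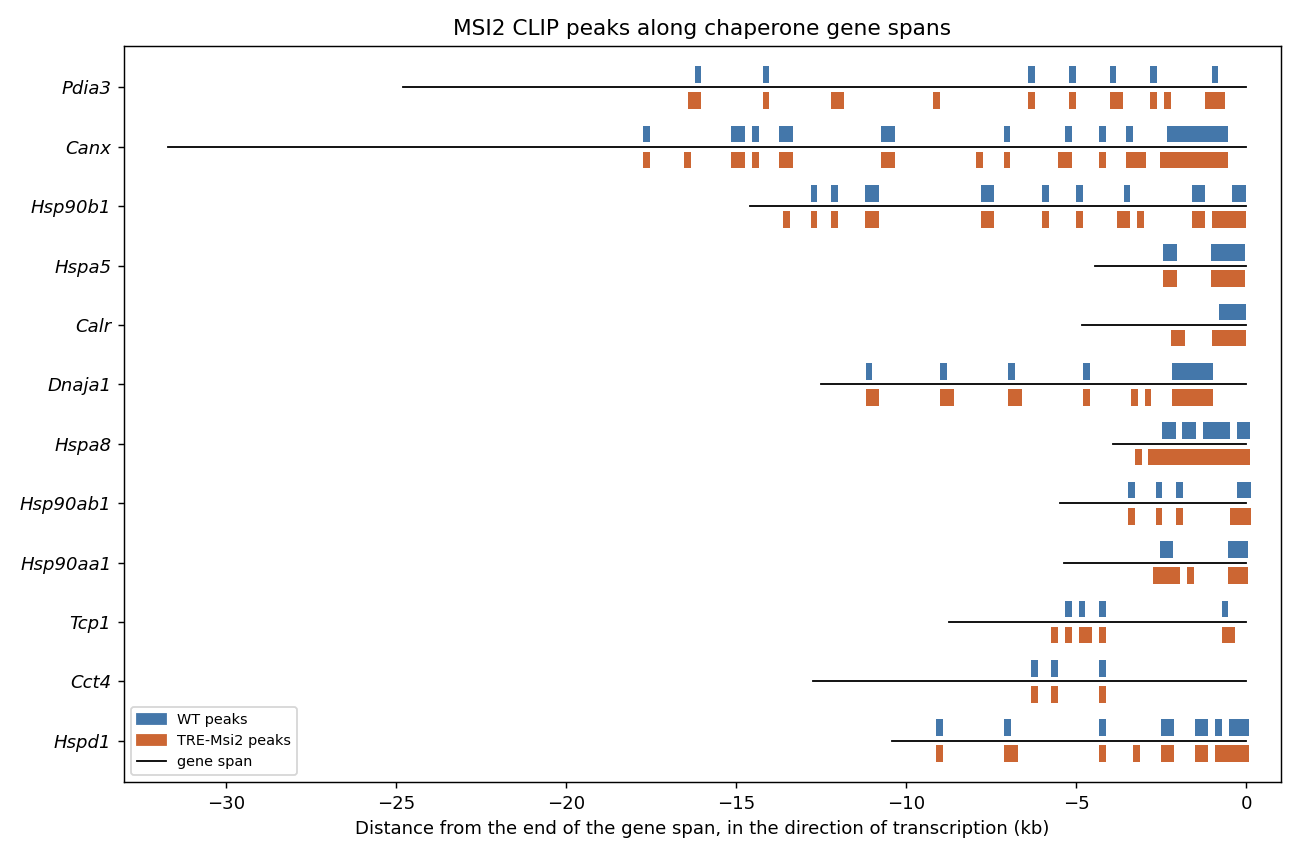
Peaks of the WT list (above each line) and the TRE-Msi2 list (below) are drawn to scale along the spans of 12 chaperone genes, as distance in kb from the end of the span in the direction of transcription. Hsp90b1, Dnaja1 and Hspd1 carry peaks from near the start to the end, Canx has none in its first 13975 bases, and each WT peak drawn has a TRE-Msi2 peak beneath it.

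Set side by side, the ER class had the larger share of genes with a WT peak, 65.0% against 39.3% in the cytosol. The TRE-Msi2 shares were 65.0% and 48.2%. With all DNAJ proteins left out of both classes, 8 of 10 ER genes and 15 of 30 cytosolic genes held a WT peak, and 8 of 10 and 18 of 30 a TRE-Msi2 peak. The 30 include the 7 small heat shock genes, of median span 1.65 kb, of which Hspb7 alone held a peak, on the other strand. The median span was 20.8 kb in the ER class and 12.8 kb in the cytosolic class, or 9.89 kb without DNAJ. Shares of the classes were not matched for span. Among genes with a peak, the median top score was 25.5 in the ER and 21 in the cytosol in WT, and 32.8 and 29 in TRE-Msi2. The medians over all genes with a peak were 21 and 28, so the cytosolic values were near the background. The ranges of the classes overlapped: 13 to 53 and 12.3 to 36.5 in WT, and 22.7 to 91 and 20 to 43 in TRE-Msi2. At least 3 WT peaks were held by 5 of the 13 ER genes and 6 of the 22 cytosolic genes with a WT peak, against 19.6% of all genes with one. At least 3 TRE-Msi2 peaks were held by 8 of 13 and 9 of 27, against 25.9%. These differences between the classes were not tested, since genes are not replicates and each list is 1 pool.

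Peak positions were compared between the lists by overlap on the same strand. Of the 99 WT peaks, 98 had a TRE-Msi2 counterpart (99.0%, with 94.5% to 100.0% as the exact Clopper-Pearson 95% interval), and the exception was that of Dnajc10. Of WT peaks over all protein-coding genes, 90.9% were. In the other direction 93 of 136 (68.4%, 59.9% to 76.1%) had a WT counterpart, against 58.7% over all protein-coding genes. The intervals treat peaks of 1 gene as independent, which they are not, and cover counting error only. In each list 59 peaks had exactly the borders of a peak in the other, or 59 of 99 WT peaks and 59 of 136 TRE-Msi2 peaks, near the 55.0% and 38.4% over all protein-coding genes. Both lists use the same 200-nt bins. The shares were alike in the cytosol (67.7% of TRE-Msi2 peaks) and the ER (68.9%).

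Peaks in TRE-Msi2 without any in WT were found in Hspa1a, Cct3, Cct5, Dnajb1, Dnajc13, Dnajc14 and Dnajc22. These are 7 of the 90 chaperone genes, against 5.75% of all protein-coding genes, and 7 of the 45 with a TRE-Msi2 peak, against 23.2% of all genes with one. Their top scores were between 21 and 30, where single-bin peaks of that list started at 20. They were 5 cytosolic genes, 1 ER gene and 1 other. Dnajc10 was the single gene with a WT peak alone, 1 of 90 against 1.2% of all protein-coding genes, and 1 of 39 with a WT peak against 5.93% of all genes with one.

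Bins that were single-bin peaks in both lists allow scores to be set side by side. Over all 3942 such bins the TRE-Msi2 score was a median of 1.52 times the WT score, a shift that the unknown depth of the lists can set. Over the 39 bins in 20 chaperone genes the median ratio was 1.59, with a range of 1.08 to 2.69. It was 1.53 in 22 cytosolic bins of 13 genes and 1.80 in 14 ER bins of 5 genes. Of the ER bins 11 lay above the median of all bins, and of the cytosolic bins 11. A bin had to reach 15 in WT and 20 in TRE-Msi2, so the 23 chaperone bins with a WT score under 20 could only have a ratio above 1. Among bins with a WT score of 20 or more the median ratio was 1.41 over all bins. It was 1.38 in 7 cytosolic bins of 6 genes and 1.76 in 8 ER bins of 3 genes. The 7 include the Hspb7 bin (ratio 1.67), which is on the other strand than its gene. All 16 chaperone bins with a WT score of 20 or more had a ratio above 1, as did 91.4% of all bins at those scores. The 5 genes of the 14 ER bins were Canx, Hsp90b1, Pdia3, Dnajb9 and Dnajb11, and bins of a gene share its transcript. In Hsp90b1 the 4 ratios ran from 1.56 to 2.00 and in Canx from 1.56 to 2.00. In Pdia3 they ran from 1.32 to 1.82. The lowest ratio, 1.08, was in Cct4 (36 and 39), and the highest, 2.69, in Dnaja1 (16 and 43). Counting intervals of the Dnaja1 bin were 9.15 to 26.0 in WT and 31.1 to 57.9 in TRE-Msi2. For the cell type markers the measure was another: the top score of each gene in each list, not the score of a matched bin. Several of these scores carry fractions, as joined peaks do, so they may not be on 1 scale with the bin ratios. The top score was lower in TRE-Msi2 than in WT for the Paneth markers Defa17 (89.5 and 80), Defa24 (97 and 93) and Mmp7 (28.5 and 19.3). It was higher for Lyz1 (74.2 and 76.4) and Ang4 (36.5 and 62). It was higher for all 5 enterocyte markers, among them Sis (50.7 and 76) and Alpi (38.8 and 64.4). The peaks of Mmp7 and of the enterocyte marker Fabp2 all touched another gene span as well. The part of cell makeup in the chaperone ratios was not tested.

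**Figure D4:**
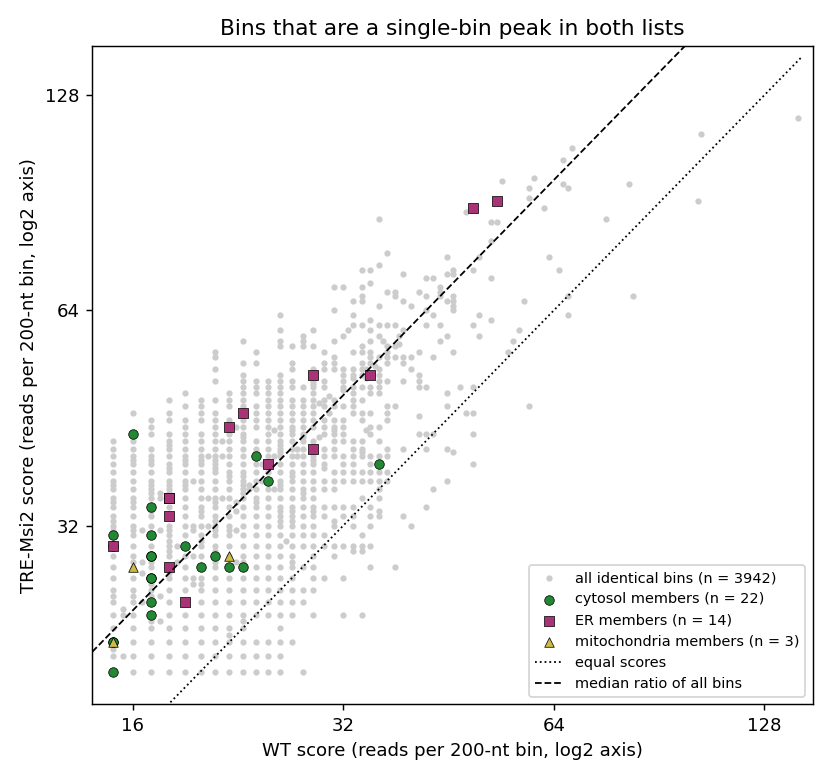
Each point is a 200-nt bin called as a single-bin peak in both lists, with its WT score on the x axis and its TRE-Msi2 score on the y axis (reads per bin, log2 axes); grey points are all 3942 bins and coloured points the 39 in chaperone genes. The dotted line marks equal scores and the dashed line the median ratio of all bins, 1.52; the 16 chaperone bins with a WT score of 20 or more lie above the dotted line, and lower ones can only lie above it.

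Fewer than 3 in 10 chaperone peaks had their centre in the last 10% of the gene span. Of those on the strand of the gene, 28.6% in WT and 25.2% in TRE-Msi2 had their centre in the last 10% of the span, against 57.0% and 50.6% over all protein-coding genes of known strand. In the ER class these were 11 of 44 and 15 of 61 peaks, and in the cytosolic class the shares were 27.3% and 23.0%. Canx, Hsp90b1, Pdia3 and Hspd1, which hold many peaks each, weigh heavily in these shares. In a short gene a peak at the very end can have its centre before the last 10%. The Hspa5 peak that ends 49 bases before the end of the span is such a case in both lists. Introns are part of the span, and exons were not used here, so these shares do not say which part of the messenger RNA was covered.

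Genes that work with the chaperones were counted in the same way, beside 20.3% and 24.8% of all protein-coding genes. Of 15 ER folding genes, 10 held a WT peak and 11 a TRE-Msi2 peak. The highest were P4hb (47.4 and 55), the founding disulfide isomerase, Ppib (39 and 60), a prolyl isomerase, and Erp44 (35 and 59), which retains unassembled proteins. Of 16 cytosolic co-chaperones, 5 held a WT peak and 9 a TRE-Msi2 peak. Bag4 is counted in both, but all its peaks (3 and 4) also touched another gene span. By WT top score the first were Chordc1 (22 and 27), Fkbp4 (20.7 and 18) and Ptges3, or p23 (20 and 28.7), and in TRE-Msi2 Ptges3, Fkbp5 and Chordc1 were, with Fkbp4 lowest. Fkbp5, Bag1, Bag3 and Bag5 held TRE-Msi2 peaks alone, with top scores of 20 to 28.5, so 4 of the 9 with a TRE-Msi2 peak lacked a WT peak, against 23.2% of all such genes. All 6 prefoldin subunits, which hand actin and tubulin to CCT, were without a peak in either list. Hsf1 and Hsf2, the heat shock transcription factors, and Hikeshi held none, while Hsbp1 held peaks in both (28 and 20). Of 6 genes of the unfolded protein response, the transcription factors Xbp1 (26 and 25) and Atf4 (29.6 and 72.2) held peaks, and the sensors Atf6, Ern1 and Eif2ak3 did not. Of the 4 mitochondrial partners found in the gene table Trap1 alone did (18 and 30), within another gene span; Grpel1 and Grpel2, also listed, were not matched and are not analysed here.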

How the data were processed

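Musashi 2 CLIP-seq peaks of 4 libraries were analysed as 2 pooled lists. Per the submitters' processing notes, cutadapt and TopHat were used, whose versions the sources used here do not give, and the builds mm9 and mm10 are named. Piranha peak calling and duplicate removal are known from the names of the deposited lists. The authors deposited, for each peak, a score and a p-value joined in 1 cell; scores were kept as deposited and these p-values were not used. Positions were read as mm10 (GRCm38). Genes were spans of a RefSeq table of GRCm38.p6, and gene strand was taken from RefSeq promoter windows for 75 of the 90 chaperone genes. A peak of either strand was counted for each gene span it shared 1 base or more with. Peaks of both lists were matched on 1 strand, also from 1 shared base. Overlap code (Python 3.11.15, pandas 2.3.3) was tested on simulated data. Exact Poisson and Clopper-Pearson 95% intervals used scipy 1.17.1.

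The genes and lists were chosen with earlier results of these data known. Text names all HSP70, HSP110, HSP90, CCT, lectin, PDI and mitochondrial genes with a peak, of the DNAJ and small heat shock genes those with the 10 highest top scores in each list or a peak in 1 list, and the 3 highest of each partner list. Other genes were named after their values were seen. No genome sequence was used, so sequences under the peaks were not analysed here.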

Additional observations from a re-analysis of the deposited data

How the results depend on the processing

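The counts of chaperone genes with a peak, in all and in the cytosolic and ER classes, stayed within 1.5 times the reported count under these alternatives: an overlap of 100 bases, peaks over 1 gene span, peaks on the strand of the gene, the upper 50% of each list by score, single-bin peaks, and only as many TRE-Msi2 peaks, from the highest score down, as the WT list holds. The same held without cytosolic DNAJ proteins, without those of the ER membrane, and without Hspg2 and Hspb11. Without any DNAJ protein the ER class had 8 genes with a WT peak and 8 with a TRE-Msi2 peak, of 10, because fewer genes were counted. The alternatives without Hspg2 and Hspb11 and without any ER DNAJ protein were chosen after seeing the data. With single-bin peaks alone, 12 genes instead of 7 held a TRE-Msi2 and no WT peak, and the shares of peaks with a counterpart were 60.9% in WT and 50.0% in TRE-Msi2, because joined peaks were removed from both lists. With the upper 50% of each list these shares were 80.7% and 51.2%, and with the shortened TRE-Msi2 list the WT share was 90.9%; fewer partner peaks remained there. No paired analysis was possible because each list pools both replicates, and for the same reason no replicate could be left out. Median scores were 19 (WT) and 24.7 (TRE-Msi2), close to the lowest single-bin scores of 15 and 20, so a gene can hold a peak in 1 list alone through a small difference in reads.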
